A study of Mus musculus with 4 samples.

Results

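Pituitary hormone genes and factors of the cells that make them were followed in RNA-Seq of CD31+CD45– cells from the mouse cerebrum, a surface profile that marks vascular endothelium and leaves out leukocytes. The members are 10 of the 24873 genes in the table: the hormone genes Gh, Prl, Pomc, Cga, Tshb and Lhb, the transcription factor genes Tbx19, Pou1f1 and Pitx1, and the protease gene Klk1b22, which is neither a hormone nor a lineage factor. They were chosen by gene symbol with their values in these same 4 libraries known, namely how far they lay from the controls after tamoxifen. Their levels and fold changes are therefore a description with no test, and nothing is supported with them.

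Every mouse carried a Cre recombinase that tamoxifen activates, driven by the VE-cadherin (Cdh5) promoter, and both copies of Mgp flanked by the sites it cuts (genotype label Cdh5cre;Mgpflox/flox). From the age of 10 weeks, tamoxifen was given once a day on 5 days at 75 mg/kg, and control mice got none of it, so that tamoxifen itself and loss of Mgp cannot be told apart. Cells were collected on day 9, with 2 libraries per group, each from cells pooled from 3 mice, and the study used both sexes. The sample labels name the cells by a tdTomato reporter, whereas the study's methods name CD31 and CD45. The tamoxifen libraries are the columns marked A in the table, and this reading rests on the column letters and on the controls' letter C. The p-values below measure the spread between such pools and not between single mice.

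The values are normalized counts, that is reads per gene divided by 1 factor per library. Whole reads could be recovered from them and came to 37475154 and 41025014 on genes in control libraries 1 and 2, and to 35387438 and 49799321 in tamoxifen libraries 1 and 2. A gene without reads is compatible with up to 3 reads, equal to 4.11 and 3.75 normalized counts in the controls and 3.25 and 2.16 after tamoxifen. Ratios between libraries or groups were taken from summed reads over summed size factors, with exact 95% intervals that cover counting error only. Log2 fold changes are tamoxifen minus control of log2(normalized count + 1), and the added 1 shrinks them where reads are few.

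The anterior pituitary hangs below the hypothalamus, outside the cerebrum, and its endocrine cell types are told apart by the hormone each releases into the blood. Pitx1 acts early in the whole gland, Pou1f1 (Pit-1) is needed for the cells that make growth hormone, prolactin and thyrotropin, and Tbx19 (T-pit) for the cells that make proopiomelanocortin. Hypothalamic releasing factors act on receptors of these cells, and the hormones are cut from precursors and stored in secretory granules.

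Mgp, the gene flanked for deletion (chromosome 6 from 136849433 to 136852821), had 1094 and 1352 normalized counts in the controls and 945 and 909 after tamoxifen. Both tamoxifen libraries lay below both controls, with a log2 fold change of -0.39 (SE 0.18, limma with BH adjustment, adjusted p = 0.0986). Its adjusted p ranged from 0.0126 to 0.713 over the alternative settings, and the sign turned to 0.08 with every library rescaled to the same total.

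Growth hormone, prolactin and proopiomelanocortin transcripts were plentiful in both control libraries. After tamoxifen those of Gh and Prl were at the floor, and Pomc was far lower but still present. Gh, the growth hormone gene of somatotrophs (chromosome 11 from 106191095 to 106192691, minus strand, GRCm39), had 2560.0 and 7483 normalized counts in the controls and 0 and 0.719 after tamoxifen. The tamoxifen values rest on 0 reads and 1 read, against 1869 and 5979 reads in the controls, so the groups lay far apart. The ratio was 11875 (interval 2131 to 469109), a width set by that single read.

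Prl, the prolactin gene of lactotrophs (chromosome 13 from 27241553 to 27249188, plus strand), had 2274 and 3373 normalized counts in the controls and 1.08 and 2.16 after tamoxifen. Both controls were high, and both tamoxifen libraries held at most 3 reads. The control level was 1647 times the tamoxifen level (interval 643 to 6049).

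Pomc encodes the precursor of corticotropin and melanocyte-stimulating hormone, made by corticotrophs and melanotrophs and, in the brain, by neurons of the arcuate nucleus (chromosome 12 from 4004944 to 4010642, plus strand). It had 8105 and 25839 normalized counts in the controls and 107 and 70.5 after tamoxifen. Control library 2 stood well above control library 1, yet the groups did not overlap, and unlike Gh and Prl the transcript stayed above the floor after tamoxifen, with 99 and 98 reads. The ratio was 204 (interval 177 to 236). The gene lies 1844 bases from Efr3b on the opposite strand, which had 42395 and 35495 normalized counts in the controls and 8226 and 6647 in the tamoxifen libraries.

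Gh, Prl and Pomc together took 0.0252% of all reads on genes in control library 1 (exact interval 0.0247% to 0.0257%) and 0.0715% in control library 2 (0.0707% to 0.0723%). In the tamoxifen libraries the share was 0.000283% (0.000230% to 0.000344%) and 0.000205% (0.000167% to 0.000249%), nearly all of it Pomc. In such bulk libraries fewer cells with these transcripts and less RNA per cell cannot be told apart. Which cells the transcripts came from was not tested.

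The subunits of the glycoprotein hormones were scarcer, and they moved in both directions. Cga encodes the alpha subunit that thyrotropin shares with the gonadotropins (chromosome 4 from 34893779 to 34907371, plus strand), and it had 118 and 189 normalized counts in the controls and 13.0 and 18.7 after tamoxifen. Every tamoxifen value lay below every control value, although 12 and 26 reads remained. The control level was 9.44 times the tamoxifen level (interval 6.68 to 13.7).

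Tshb, the thyrotropin beta subunit gene (chromosome 3 from 102682781 to 102690034, minus strand), had 31.5 and 38.8 normalized counts in the controls and 5.42 and 2.16 after tamoxifen. The groups did not overlap, on 23 and 31 reads against 5 and 3, and the ratio was 10.2 (interval 4.83 to 24.9). Its locus overlaps Tspan2 on the other strand, which had 981, 831, 749 and 600.3 normalized counts in the same order of libraries. The library kit keeps the strand, but whether the counting used it is not given in the sources used here, so reads of the overlapping genes cannot be told apart.

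Lhb, the luteinizing hormone beta subunit gene of gonadotrophs (chromosome 7 from 45070244 to 45071321, plus strand), went the other way. It had 0 and 3.75 normalized counts in the controls and 44.4 and 86.3 after tamoxifen. Here the controls were at or near 0, with 0 and 3 reads, and both tamoxifen libraries were higher, with 41 and 120 reads. The tamoxifen level was 35.5 times the control level (interval 11.9 to 174). Lhb lies within the span of Ruvbl2, read from the opposite strand, which had 1957 and 2448 normalized counts in the controls and 5186 and 4589 after tamoxifen (log2 fold change 1.16). Ntf5, 3640 bases away on the strand of Lhb, had 1.37 and 3.75 in the controls and 32.5 and 35.2 after tamoxifen (log2 fold change 3.38, limma with BH adjustment, adjusted p = 0.00280). As for Tshb, the strand setting is not known, and reads of Ruvbl2 counted for Lhb cannot be told apart from Lhb transcript. Fshb, the remaining gonadotropin subunit gene, has no row in the table.

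All 3 lineage factors were lower in both tamoxifen libraries. Tbx19, which activates Pomc in corticotrophs and melanotrophs (chromosome 1 from 164965422 to 164988362, minus strand), had 364 and 736 normalized counts in the controls and 0 and 0.719 after tamoxifen. Tamoxifen library 1 had no read and tamoxifen library 2 a single one, against 266 and 588 in the controls. The ratio was 1292 (interval 231 to 51100).

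Pou1f1, the factor of somatotrophs, lactotrophs and thyrotrophs (chromosome 16 from 65317397 to 65331183, plus strand), had 30.1 and 57.6 normalized counts in the controls and 0 and 1.44 after tamoxifen. Both tamoxifen libraries were at the floor, on 0 and 2 reads against 22 and 46. The ratio of 51.4 has a wide interval (13.7 to 433).

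Pitx1, which acts in the early gland and later with the lineage factors on hormone genes (chromosome 13 from 55972864 to 55984005, minus strand), had 50.7 and 189 normalized counts in the controls and 5.42 and 9.35 after tamoxifen. Control library 2 was again the higher control, and the tamoxifen libraries kept 5 and 13 reads. The control level was 15.8 times the tamoxifen level (interval 9.73 to 27.2). A long noncoding RNA gene on the other strand, Gm47071, overlaps it and had 91.8, 65.1, 68.3 and 61.1 normalized counts in control libraries 1 and 2 and tamoxifen libraries 1 and 2.

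Klk1b22 encodes a secreted serine protease of the tissue kallikrein family (chromosome 7 from 43762084 to 43766346, plus strand). It had 125 and 274 normalized counts in the controls and no read in either tamoxifen library. Against a floor of 3 reads in each tamoxifen library, it was at least 73.7-fold lower. The genes of this family are close copies of each other, and 12 of the 13 others searched have no row in the table, so the assignment of its 91 and 219 control reads to this copy is uncertain. Klk1 itself had 1.37, 5.01, 13.0 and 1.44 normalized counts in the same order.

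**Figure D1:**
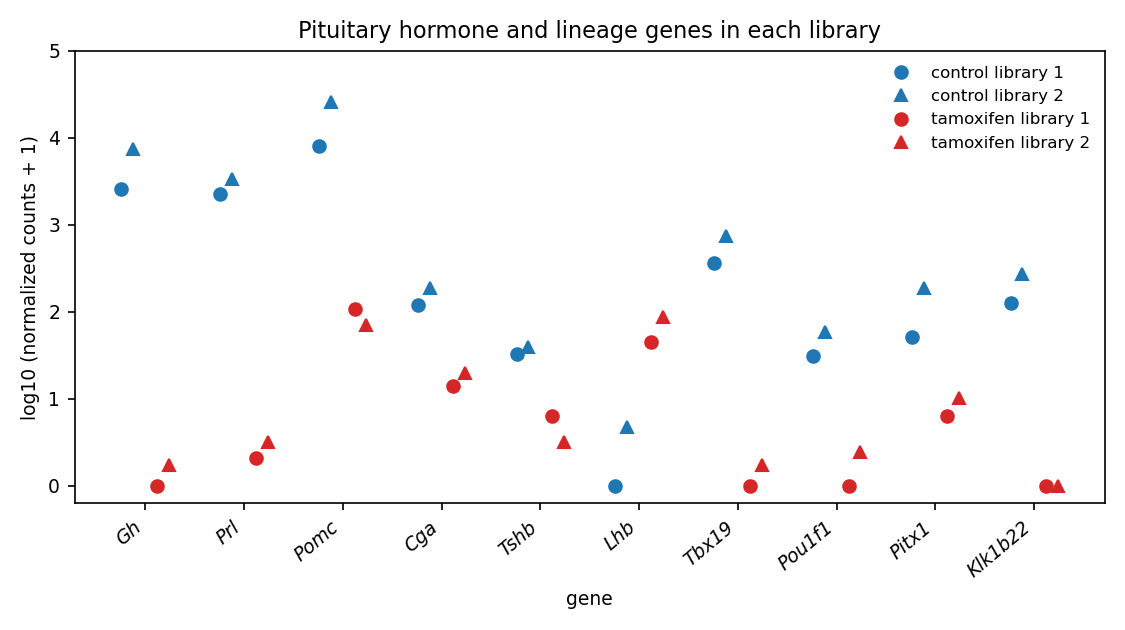
Normalized counts of the 10 genes, drawn as log10(normalized count + 1) on the vertical axis, with 1 point per library and the genes on the horizontal axis. For 9 genes both tamoxifen points lie below both control points, and for Lhb, with 44.4 and 86.3 against 0 and 3.75, both lie above.

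All 10 members passed the filter of 10 normalized counts on average. In both tamoxifen libraries 9 were below both controls, a pattern found for 39.2% of the 20485 genes tested, and 1 was above, found for 43.1%. By the call rule (limma, adjusted p under 0.05 and absolute log2 fold change over 1), 9 met it as lower, as did 16.0% of all genes tested, and 1 as higher, as did 28.6%. Since this contrast chose them, nothing is read from these counts. The median log2 fold change of the members was -6.07, or -5.49 with Klk1b22 set to its floor, against 0.05 for all genes tested. Gh, Prl, Tbx19, Klk1b22 and Pomc held ranks 1, 2, 3, 4 and 5 from the largest fall, and Pou1f1 rank 16, Pitx1 rank 78, Cga rank 202 and Tshb rank 305. The order of Tbx19, Klk1b22 and Pomc depends on the added 1. With a pseudocount of 5 their log2 fold changes were -6.61, -5.25 and -7.30. Lhb, at rank 19339, was among the rises.

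Rescaling moved the median of all genes from 0.05 to 0.52 with equal totals and to -0.20 with quantile normalization, and no member changed sign under either. The fold change closest to 0 among the 9 lower genes over all settings was -2.21, for Tshb with a pseudocount of 5. Lhb ranged from 3.34 with a pseudocount of 5 to 5.98 without control library 2.

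Compared per kilobase of annotated exon, the control levels of the members spanned orders of magnitude. Pomc led with 6117 and 19501 normalized counts per kb in control libraries 1 and 2, which placed it at ranks 156 and 39 of 24531 genes. Gh followed with 2963 and 8661 per kb, at ranks 401 and 114. Prl had 1615 and 2396 per kb. The controls' ranges of Gh and Pomc overlap, whereas Prl in both controls lay below Gh in either.

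The remaining members were far lower on the same scale. Klk1b22 had 132 and 291 normalized counts per kb, and Tbx19 had 113 and 229. Cga had 93.8 and 150.5 per kb, so that the ranges of Klk1b22, Tbx19 and Cga overlap each other. Pitx1 had 19.1 and 71.2, below all of these. Pou1f1 had 8.60 and 16.4 per kb, and Tshb had 6.92 and 8.52. Lhb was the scarcest, with 0 and 5.54. The order from Pomc down to Lhb was the same in both control libraries. Lengths are the union of all annotated exons, so a gene with long alternative exons, such as Tshb with 4555 bases, is placed lower than its main transcript would be.

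The proportion of Gh to Prl differed between the control libraries, more than that of Pomc to Gh. No intervals were computed for these proportions. Per kb, Pomc was 2.06 times Gh in control library 1 and 2.25 times in control library 2. Gh was 1.83 and 3.62 times Prl, and Cga was 13.6 and 17.7 times Tshb. Pomc stood at 54.0 and 85.2 times Tbx19 and Gh at 345 and 527 times Pou1f1, whereas Tshb lay below Pou1f1 in both controls.

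Control library 2 held more of the pituitary transcripts than control library 1. Pitx1 was 3.73 times higher there (interval 2.59 to 5.50), Pomc 3.19 times (3.10 to 3.28) and Gh 2.92 times (2.77 to 3.08). Klk1b22 was 2.20 times higher (1.71 to 2.84), Tbx19 2.02 times (1.74 to 2.34) and Pou1f1 1.91 times (1.13 to 3.33). Cga was 1.60 times higher (1.22 to 2.12) and Prl 1.48 times (1.39 to 1.58), while the interval of Tshb, 1.23 (0.695 to 2.21), spans no difference. Of the 9 members with a control mean of at least 10, 7 were over 1.5 times higher in control library 2, as were 12.5% of the 17953 genes with such a control mean. The median ratio was 2.02 for these members and 1.04 for all such genes. These intervals hold no variation between mice, and no test was made with 1 library on each side.

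Other cell types moved with this difference in part. All 5 choroid plexus and ependymal markers with a control mean of at least 10 were over 1.5 times higher in control library 2 (median ratio 2.51), as were 6 of 7 pericyte and smooth muscle markers (median 1.78), 5 of 6 microglia and macrophage markers (median 1.95) and 4 of 7 astrocyte markers (median 1.64). Ptprc, which marks leukocytes, was 1.65 times higher there, and 2 of 10 neuron markers passed 1.5 times (median 1.07). None of 11 endothelial markers was (median 1.02), nor any of 4 oligodendrocyte markers (median 0.928). Of the pituitary genes outside the members, 22 of 34 were, with a median ratio of 1.93. The part of these cell types in the spread of the pituitary genes was not tested.

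**Figure D2:**
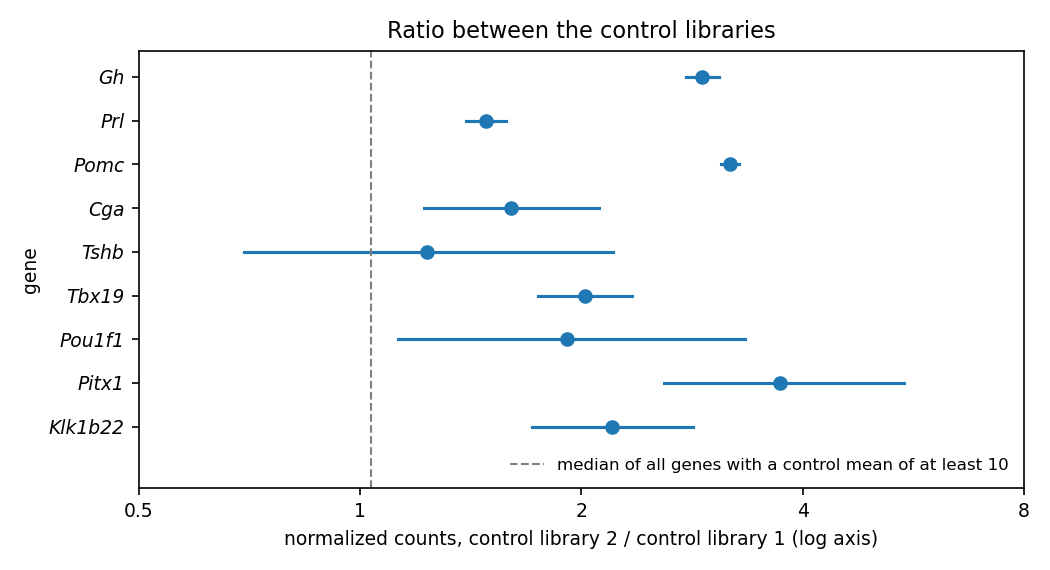
Ratio of normalized counts in control library 2 to control library 1 on a log axis, for the 9 members with a control mean of at least 10, with exact 95% counting intervals. The points run from 1.23 for Tshb to 3.73 for Pitx1, and all lie to the right of the dashed line at 1.04, the median of all genes with such a control mean.

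The lists of other pituitary genes were tested in the fit across all genes and went both ways. Of the 47 genes listed, 43 have a row and 39 were tested, of which 13 were called lower, 16 higher and 10 neither, with a median log2 fold change of 0.24 against 0.05 for all genes tested. With equal totals 8 were called lower and 18 higher, and with quantile normalization 14 and 14. Across all genes the split was 3284 lower and 5867 higher, but 1838 and 7206 with equal totals and 5275 and 4738 with quantile normalization. Without tamoxifen library 1 the pituitary genes outside the members gave 5 lower and 9 higher calls and all genes 1994 and 3030, and without tamoxifen library 2 they gave 5 and 6 against 1594 and 2553 for all genes.

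Of 6 tested receptors through which the hypothalamus reaches the gland, 3 were called lower and 2 higher, where 16.0% and 28.6% of all genes tested were. Ghrhr, the growth hormone-releasing hormone receptor of somatotrophs, fell from 23.3 and 31.3 normalized counts in the control libraries to 1.08 and 0 in the tamoxifen libraries (limma with BH adjustment, adjusted p = 0.00105), and the ratio was 63.6 (interval 10.8 to 2569). Crhr1, the corticotropin-releasing hormone receptor of corticotrophs and many neurons, fell from 108 and 367 to 8.67 and 2.16 (adjusted p = 0.000994). Avpr1b, the vasopressin receptor of corticotrophs, fell from 24.7 and 86.4 to 5.42 and 5.75 (adjusted p = 0.0109). The calls of Crhr1 and Avpr1b were lost without either tamoxifen library, with adjusted p over all settings up to 0.0930 and 0.160.

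The other receptors tested were not called lower. Adcyap1r1, the PACAP receptor, rose from 655 and 857 to 4369.9 and 9648 normalized counts (limma with BH adjustment, adjusted p = 0.000195), and Sstr2, a somatostatin receptor, from 9.59 and 15.0 to 66.1 and 252 (adjusted p = 0.00508, but 0.0824 without tamoxifen library 2). Drd2, the dopamine receptor of lactotrophs and of striatal neurons, had 26.0 and 47.6 in the controls and 42.3 and 17.3 after tamoxifen, with overlapping groups. Ghsr, Gnrhr and Trhr have no row in the table.

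Among the 21 pituitary transcription factors tested outside the members, 5 were called lower and 12 higher (median log2 fold change 2.09), against 16.0% and 28.6% of all genes tested. With equal totals the calls were 3 lower and 13 higher (median 2.55), and with quantile normalization 6 and 9 (median 1.05). Lhx3, a homeodomain factor of nearly all anterior pituitary cells, fell from 57.5 and 156 normalized counts to 4.34 and 0 (limma with BH adjustment, adjusted p = 0.00166), on 42 and 125 reads against 4 and 0. Its call was lost without tamoxifen library 2 (adjusted p = 0.0815, range over the settings 3.71e-11 to 0.0815). Six6 fell from 26.0 and 80.1 to 5.42 and 10.1 (adjusted p = 0.0192), a call lost with equal totals and without control library 2 or either tamoxifen library (adjusted p up to 0.217). Nr5a1, a gonadotroph factor, had 9.59 and 20.0 against 8.67 and 0 and was too low to be tested.

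Gata2 and Foxl2, factors of gonadotrophs and thyrotrophs that other tissues also use, were abundant. Gata2, which endothelium expresses too, fell from 16152 and 17755 normalized counts to 2649.9 and 1185 (limma with BH adjustment, adjusted p = 0.000147). Foxl2 fell from 3786 and 4163 to 628 and 357 (adjusted p = 7.53e-05). Neither differed much between the control libraries, each being 1.10 times higher in control library 2, in contrast to Lhx3 at 2.72 (interval 1.90 to 3.96).

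Sox2, of stem cells of the pituitary and the brain, rose from 140 and 181 normalized counts to 5176 and 5511 (limma with BH adjustment, adjusted p = 4.43e-06). Hesx1, an early repressor of the gland that pluripotent cells also express, had no read in the controls and 49.9 and 41.0 after tamoxifen, at least 11.6-fold higher (adjusted p = 0.000191). Nr0b1, also without a read in the controls, reached 397 and 342 (adjusted p = 2.71e-05).

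Of 12 genes of hormone processing and of the secretory granule, 5 were called lower and 2 higher (median log2 fold change -0.17; 16.0% and 28.6% of all genes), but 2 lower and 3 higher with equal totals (median 0.29). Scg2, a granin of the granule core, fell from 881 and 1735 normalized counts to 71.5 and 146 (limma with BH adjustment, adjusted p = 0.000295, but 0.0605 without tamoxifen library 1). Chgb, another granin, fell from 1701 and 3200 to 298 and 628 (adjusted p = 0.00133), a call lost without either tamoxifen library (adjusted p up to 0.101). Pcsk1, the convertase that cuts corticotropin from its precursor, fell from 99.99 and 138 to 33.6 and 43.1 (adjusted p = 0.0188), a call lost with equal totals and without control library 2 or either tamoxifen library (adjusted p up to 0.157). Chga, also on the list, fell from 833 and 1937 to 480 and 423 (adjusted p = 0.00901). Its call was lost with equal totals, without the trend, and without control library 2 or either tamoxifen library. Pam fell from 10825 and 10776 to 4630 and 3992 (adjusted p = 0.000302), a call lost with equal totals and with quantile normalization. Pcsk2, which cuts melanocyte-stimulating hormone, had 16.4 and 67.6 in the controls and 80.2 and 162 after tamoxifen and was not called (adjusted p = 0.0709).

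Scg3, another granin, rose from 1271 and 2262 to 9259 and 20858 normalized counts (limma with BH adjustment, adjusted p = 0.000434, but 0.0689 without tamoxifen library 2), and Dlk1, which is on the list but encodes a membrane protein and not one of the granule, from 390 and 1237 to 7900 and 6565 (adjusted p = 0.000509), a call lost without either tamoxifen library (adjusted p up to 0.107). Cpe, the carboxypeptidase that trims the peptides and the most abundant gene of the list, had 25491 and 34612 in the controls and 25886 and 39649 after tamoxifen, with overlapping groups.

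Set out by cell type, the markers are listed here as a description, since many are members chosen on this contrast, and both tamoxifen libraries lay below both controls for 39.2% of all genes tested and above them for 43.1%. Of 3 somatotroph markers (Gh, Ghrhr, Pou1f1) 3 were below the controls in both tamoxifen libraries, and of 4 corticotroph markers (Pomc, Tbx19, Crhr1, Avpr1b) 4 were. Of the lactotroph markers Prl and Pou1f1 were below and Drd2 overlapped. The thyrotroph markers Tshb, Cga and Pou1f1 were below. For gonadotrophs Cga and Nr5a1 were below and Lhb above. For melanotrophs Pomc and Tbx19 were below, while Pcsk2 and Pax7, at 0 and 3.75 in the controls and 11.9 and 26.6 after tamoxifen, were above. The progenitor markers Sox2 and Hesx1 were above. The gland shares Sox2, Pcsk2 and Drd2 with the brain.

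Genes of the hypothalamic side were read from the same fit. Of 18 releasing factor and neuropeptide genes 13 have a row and 8 were tested, of which limma called 4 higher, or 1 without either tamoxifen library. Their summed level was 126 and 197 normalized counts in the controls and 1971 and 2212 after tamoxifen. Trh, the thyrotropin-releasing hormone gene and the most abundant of the list over the 4 libraries, rose from 4.11 and 5.01 to 1199 and 1067 (limma with BH adjustment, adjusted p = 1.28e-05). Npy rose from 2.74 and 21.3 to 577 and 930.3 (adjusted p = 0.000367), a call lost without either tamoxifen library (adjusted p up to 0.0952), and so were those of Gal and Tac2. In the controls Gnrh1 was far higher, with 69.9 and 71.3, and it had 36.8 and 29.5 after tamoxifen and was not called. Ghrh, Sst, Pmch and Adcyap1 had no read in the controls. Vip went the other way, with 12.3 and 8.76 in the controls and no read after tamoxifen, and was too low to be tested. Crh, Avp and Oxt have no row in the table.

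Receptors and early targets of the hormones in the sequenced cells were read from the same fit. Of 7 tested, 2 were called lower, or 1 with equal totals, and 3 higher, where 16.0% and 28.6% of all genes tested were. The median log2 fold change was 1.16, against 0.05 for all genes tested. Higher calls were fewer without either tamoxifen library, and none of the 3 passed a filter at a mean of 100. Cish, a target of growth hormone and prolactin signalling as well as of cytokines, fell from 796 and 892 normalized counts to 242 and 201 (limma with BH adjustment, adjusted p = 0.000296). Socs2, of the same family, fell from 2919 and 2802 to 1249 and 858 (adjusted p = 0.000604), but with equal totals its log2 fold change no longer met the size limit. Ghr, the growth hormone receptor, had 2366 and 2020.1 against 1361 and 1257, a log2 fold change of -0.74 that did not reach the size limit. Tshr rose from 5.48 and 0 to 34.7 and 52.5 (adjusted p = 0.00619), a call lost without either tamoxifen library (adjusted p up to 0.172).

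Most relatives of prolactin have no row in the table. Of 25 genes of the family 6 have a row and 2 were tested. Prl2c2 (proliferin) rose from 0 and 1.25 normalized counts to 260.1 and 215 (limma with BH adjustment, adjusted p = 8.28e-05), and Prl2c3 had 53.4 and 8.76 in the controls and 4.34 and 8.63 after tamoxifen and was not called (adjusted p = 0.137). The proliferin genes are near-identical copies, so reads may be split between them.

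Markers of the cell type named by the sort fell, with a median log2 fold change of -2.92. Across all genes tested, 16.0% were called lower and 28.6% higher. All 11 endothelial markers were called lower, and their summed level was 1168004 and 1189866 normalized counts in the controls and 206452 and 104862 after tamoxifen, with Flt1 the most abundant. Emcn, the one with the largest fall, had a log2 fold change of -3.43. Of 4 markers of fenestrated endothelium, the vessel type found in the pituitary and other glands, 3 were called lower, or 2 with equal totals or without either tamoxifen library. The fourth, Plpp3, was called higher, from 3609 and 4344 normalized counts to 16319.8 and 32322 (limma with BH adjustment, adjusted p = 0.000300). Whether its reads came from endothelium or from other cells was not tested. Plvap among the lower ones had 3817 and 3907 normalized counts in the controls and 487 and 457 after tamoxifen. Plvap and the other markers of this list differed little between the control libraries (median ratio 1.04).

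Many markers of brain cells were called higher after tamoxifen, and fewer of them when a tamoxifen library was left out. Among all genes tested, 28.6% were called higher. Of 10 neuron markers 8 were called higher by limma, with a summed level of 1175 and 1427 normalized counts in the controls and 10604 and 15781 in the tamoxifen libraries, led by Stmn2 in the controls and by Tubb3 after tamoxifen. All 7 astrocyte markers were called higher (27291, 31801, 135572 and 287570.1 in the same order, led by Gja1 in control library 1 and by Slc1a2 in the others), as were 5 of 6 oligodendrocyte markers (1103, 1386, 5345 and 5878, led by Cnp). All 6 choroid plexus and ependymal markers were called higher (967, 3461, 9363 and 46253, led by Ttr). Of 7 pericyte and smooth muscle markers 1 was called higher (24237, 42046, 28374 and 58807, led by Rgs5). That count was 0 with no filter or without the trend, 2 with equal totals or quantile normalization, and higher without control library 2. Without tamoxifen library 1 the higher calls were 6 for neurons, 4 for astrocytes, 2 for oligodendrocytes and 2 for choroid plexus and ependyma. Without tamoxifen library 2 they were 5 for neurons, 2 for astrocytes and 2 for oligodendrocytes, and those of choroid plexus and ependyma were lost, as was the pericyte call without control library 1 or either tamoxifen library.

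Some markers of leukocytes, microglia and muscle were called higher as well, as were 28.6% of all genes tested. Ptprc, which encodes CD45, had 50.7 and 83.9 normalized counts in the controls and 1423 and 1119 after tamoxifen, and 3 of 6 microglia and macrophage markers were called higher (summed 1256, 2366, 3480.1 and 3174, led by Csf1r). The microglia calls were lost without either tamoxifen library, and numbered 1 with quantile normalization and 2 without control library 1. Of 9 skeletal muscle markers 8 were called higher (708, 957, 5095 and 3937, led by Mylpf), and 5 without either tamoxifen library. Mylpf, with 685 and 942 in the controls and 1389 and 989.9 after tamoxifen, made up nearly all of the control sum and was the one not called (adjusted p = 0.0843). None of these lists had a marker at 0 throughout a group. The part that any of these cells have in the pituitary values was not tested.

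The 10 genes outside the members whose pattern was most like theirs were found by the Euclidean distance of centred log2(normalized count + 1) over the 4 libraries from the members' mean. They were Gm57212, Or6d15, Resp18, Elapor1, Gm47752, Doc2b, Gm35572, Gm831, Gm47732 and Cldnd2, at distances from 0.652 to 1.42. Gm57212, a long noncoding RNA gene, came closest, with 17.8 and 68.8 normalized counts in the controls and no read in the tamoxifen libraries. Resp18 had 133 and 536 in the controls and 8.67 and 8.63 after tamoxifen. Elapor1 had 893 and 2101 against 54.2 and 61.8. Of the members themselves, Pou1f1 lay at 0.983 and Lhb, the farthest, at 10.4.

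A search made after the values were seen asked how many genes were lost as fully. With a control mean of at least 30 normalized counts and at most 3 reads in each tamoxifen library, 14 genes of the table qualified and 5 of them were members. Gh, Prl, Tbx19 and Klk1b22 were the 4 with the highest control means, at 5022 ± 3481, 2823 ± 777, 550.1 ± 263 and 199 ± 106 normalized counts (SD, n = 2). The highest outside the members was Gm47752, with a control mean of 44.6.

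The promoters were read because most of the members moved together while Lhb moved the other way. The RefSeq table (build GRCm38.p6) gave 9 promoters for 8 of the 10 members, with Gh and Pitx1 not among them, and the 250 bases before the start were searched on both strands. The motifs were the Pit-1 core TATNCAT, the bicoid site TAATCC, the bicoid site TAAGCC of the Pomc element, the T-box site TCACACC, the steroidogenic factor site TGACCTTG and the TATA box TATAAA. Such letters stood in 7.92%, 6.25%, 8.20%, 3.33%, 1.33% and 12.4% of all 32851 promoters, in that order. The Prl promoter (chr13:27057320-27057569, plus strand) held the Pit-1 core from 47 bases before the start and, on the minus strand, from 148 bases before it. The upstream Pou1f1 promoter (chr16:65520262-65520511, plus strand) held it on the minus strand from 57 bases before the start, overlapping a TATA box that begins 54 bases before it. The Lhb promoter (chr7:45420696-45420945, plus strand) held TAAGCC from 198 and TGACCTTG from 129 bases before the start. The promoters are printed 5′ to 3′ on the gene's strand, with the Pit-1 core, bicoid and steroidogenic factor letters in capitals.
Prl: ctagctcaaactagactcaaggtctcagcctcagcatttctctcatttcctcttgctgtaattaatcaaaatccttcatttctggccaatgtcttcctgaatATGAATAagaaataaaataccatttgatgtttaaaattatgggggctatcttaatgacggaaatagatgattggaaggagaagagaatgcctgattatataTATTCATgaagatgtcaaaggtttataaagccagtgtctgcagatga
Pou1f1: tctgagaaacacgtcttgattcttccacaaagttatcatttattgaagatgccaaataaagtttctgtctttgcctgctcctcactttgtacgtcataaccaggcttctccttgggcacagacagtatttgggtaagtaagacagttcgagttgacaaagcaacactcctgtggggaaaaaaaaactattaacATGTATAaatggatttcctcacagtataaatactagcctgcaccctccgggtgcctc
Lhb: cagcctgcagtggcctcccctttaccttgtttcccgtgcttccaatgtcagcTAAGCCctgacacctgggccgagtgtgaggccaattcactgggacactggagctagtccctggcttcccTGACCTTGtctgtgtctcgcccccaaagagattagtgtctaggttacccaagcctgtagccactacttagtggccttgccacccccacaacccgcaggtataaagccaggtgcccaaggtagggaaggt
The TATA box stood 24 bases before the start in Prl, 25 in Pomc, 27 in Tshb, 30 in Cga, 31 in Lhb and 33 in the upstream Pou1f1 promoter. Neither the promoters of Tbx19 and Klk1b22 nor the downstream Pou1f1 promoter held any of these letters, and those of Pomc, Cga and Tshb held the TATA box alone. These matches describe the letters in this window and are not sites of binding.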

How the data were processed

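RNA of CD31+CD45– cells was measured in 2 control and 2 tamoxifen libraries. Per the submitters' processing notes, STAR 2.7.10a was run by the authors against GRCm39, and counts were normalized with DESeq2 1.36.0 after leaving out genes with low counts; the annotation release, strand setting and count limit are not given in the sources used here. For each gene the deposited table holds a signal, its read count divided by 1 factor per library (0.730, 0.799, 0.923 and 1.39). Whole reads were recovered for 100% of values within 0.01 read. Gene positions and exon lengths came from GENCODE M39 for 24531 of 24873 genes, and promoters from RefSeq.

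The test was limma 3.58.1 (lmFit, eBayes with trend) in R 4.3.3 of log2(normalized count + 1). It covered the 20485 genes averaging 10 or more, and was BH-adjusted, with calls at adjusted p under 0.05 and absolute log2 fold change over 1. Genes with 1 to 3 reads carry exact binomial intervals (scipy) in place of the lower bound first planned, which was kept for genes at 0. With 2 libraries against 2, an exact permutation test cannot give a p below 0.333. On counts simulated around the control means of these libraries, limma called 150 of 150 genes changed 4-fold or more and 6 unchanged genes of 18427 tested. The simulation used a fixed spread not estimated from the libraries and changed few genes. Its call rates therefore do not carry over to these data. The members and lists were chosen with earlier results of these data known. Genes named are the members, any gene of the pituitary lists, the 3 most abundant per kb and 3 most changed of every other list, and the 10 nearest in pattern. Settings changed in turn were the pseudocount (0.5 and 5), the filter (none and 100), the scaling (equal totals and quantiles), the trend, a block for the replicate number, the tool (edgeR 4.0.16, then DESeq2 1.42.0, from the recovered reads), the libraries (1 dropped at a time) and the size limit. Python 3.11.15 was used.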

Additional observations from a re-analysis of the deposited data

How the results depend on the processing

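Filter, trend and block cannot alter a fold change. Of 100 values of the 10 members under the other settings none changed sign, 74 moved by less than the spread between libraries and 26 by more. Across all genes, lower calls numbered 3284 as reported, 1838 with equal totals, 5275 with quantile normalization and 5228 by the adjusted p alone. Leaving out 1 library gave 1594 to 3537 lower and 2553 to 6163 higher calls, the lowest without tamoxifen library 2. Higher calls fell from 5867 to 3540 with a filter at a mean of 100, where 13668 genes remained to be tested. Of the pituitary genes outside the members, 13 were called lower, 8 with equal totals, 8 with a filter at 100 and 5 to 12 with 1 library left out; 16 were called higher and 6 to 18 with 1 library left out. Where 1 library was left out, the lone sample of its group was assumed to vary like the others. With the equal-totals and quantile scalings the cause was not tested, and with the higher filter or fewer libraries fewer genes or samples entered. On recovered reads DESeq2 called 3045 lower and 5694 higher genes and edgeR 3377 and 5864. The replicate numbers are only names (correlation of their deviations 0.0251 over genes), and the replicate block gave 3461 lower and 6064 higher calls, and 13 and 17 pituitary genes. Depth limits the ratios of Gh and Tbx19, whose intervals rest on 1 tamoxifen read, and Tshb, Pou1f1 and Lhb rest on at most 120 reads in any library.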
